A study of Homo sapiens with 6 samples.

Results

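The expression of 9 genes that write, maintain or remove DNA methylation was examined in human H1 embryonic stem cells on day 3 of definitive endoderm (DE) differentiation, with and without the kinase inhibitor saracatinib (SAR). The genes were taken by symbol with no threshold on their values, though earlier results of these data were known. They are DNMT1, UHRF1, DNMT3A, DNMT3B, DNMT3L, TET1, TET2, TET3 and TDG, 9 of the 40396 Ensembl genes in the deposited table. The control group was 3 samples given DMSO, and the treated group was 3 samples given 0.5 µM SAR, a compound developed against Src family kinases, through all 3 days. Kinase activity was not measured in these libraries. In western blots of such cells, the study reported that this dose did not effectively inhibit Src phosphorylation. It reported lower phosphorylation of focal adhesion kinase at some of the sites examined. Both groups were H1 cells on Matrigel in DMEM with B27, Glutamax and 50 ng/mL activin A, and CHIR99021, a Wnt pathway agonist, was present at 2.5 µM in the first 24 h only. H1 is a single cell line, and nothing says whether the 3 samples of a group were separate cultures, so p-values measure the spread between these samples, which may be technical. Each sample gave 1 library of poly(A)-selected mRNA, and the values are FPKM, the fragments of a gene scaled by its length and by all fragments of the library.

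DNA methylation is carried mostly on cytosines of CpG dinucleotides. DNMT3A and DNMT3B place it on unmethylated DNA, with DNMT3L as a cofactor that has no catalytic activity of its own, and DNMT1, guided to hemimethylated DNA by UHRF1, copies it at replication. TET1, TET2 and TET3 oxidize methylcytosine, and TDG, a DNA glycosylase, excises the most oxidized forms so that base excision repair can restore an unmodified cytosine. Pluripotent cells are known for high DNMT3B and TET1, and both are known to decline as cells leave pluripotency.

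The recovered library totals were 18877964 to 24419937 reads in control and 16681280 to 18389543 with SAR, and control replicate 1 listed 33169 genes above 0 FPKM where the other 5 libraries listed 29506 to 30109. All 14 of the DE markers examined were above 0 in every library and passed the minimum level. With SAR 6 were higher (42.9%) and 7 lower (50.0%), against 23.7% and 9.55% of all tested genes. Among them FOXA1 (2.54 on the log2 scale) and FOXA2 (1.44) were higher and GSC (-1.48) and EOMES (-1.36) lower. Pluripotency markers were also present, with POU5F1 at 181 ± 40.9 FPKM (SD, n = 3) in control and 219 ± 4.43 with SAR. In bulk RNA, fewer cells of a type and less RNA per cell cannot be told apart. Of 18 markers of mesoderm, ectoderm and trophoblast, 7 reached the minimum level, 3 were higher and 1 lower, and the level summed over all 18 was 76.1 to 93.3 FPKM in the control libraries and 100 to 114 with SAR, of which NES, also made by undifferentiated cells, made up 63.4 and 74.0 FPKM on average. Of the 18 markers, 1 to 4 were at 0 in a library. The 3 higher and 1 lower were 42.9% and 14.3% of the 7 tested. TBXT, a primitive streak and mesoderm gene, rose from 3.51 ± 0.245 to 11.7 ± 2.15 FPKM (limma, adjusted p = 0.000574), TBX6, a mesoderm gene, from 1.22 to 2.23 FPKM (adjusted p = 0.00207) and GATA3, a trophoblast gene, from 0.964 to 2.17 FPKM (adjusted p = 0.00958), while KDR, a gene of vascular mesoderm, fell from 13.4 to 11.5 FPKM (adjusted p = 0.0177). The other 11 were not tested, with the mesoderm gene MESP1 at 0.0433 and 0.032 FPKM, the neural gene PAX6 at 0.089 and 0.0028 and the trophoblast gene CDX2 at 0.0121 and 0.311. The part of these markers in the results below was not tested.

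Because CpG is the substrate of the enzymes in question, the DNA before the outermost RefSeq start is shown for DNMT3A and TDG, the 2 members whose change passed the test. Capitals mark CpG, and the bases run in the direction of transcription on GRCh38.p14, up to but not into the gene as annotated in GENCODE 29. The DNMT3A stretch lies at chr2:25342591-25342840 on the minus strand and the TDG stretch at chr12:103965622-103965803 on the plus strand.
DNMT3A: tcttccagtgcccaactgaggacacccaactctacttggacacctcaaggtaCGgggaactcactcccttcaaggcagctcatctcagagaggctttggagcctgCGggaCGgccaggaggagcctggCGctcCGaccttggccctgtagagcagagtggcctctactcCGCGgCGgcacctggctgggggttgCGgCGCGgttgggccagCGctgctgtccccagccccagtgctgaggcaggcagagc
TDG: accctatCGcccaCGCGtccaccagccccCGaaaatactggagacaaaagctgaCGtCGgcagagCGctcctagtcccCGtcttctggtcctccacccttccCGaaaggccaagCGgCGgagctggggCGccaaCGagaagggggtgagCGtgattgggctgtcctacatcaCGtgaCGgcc

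The printed DNMT3A stretch holds 12 CpG in 250 bases and the TDG stretch 16 in 182. RefSeq gives 6 starts for DNMT3A and 1 for TDG, and the FPKM of a gene adds up whatever its starts produce. Over the 250 bases before the outermost start, the windows held 12 CpG for DNMT3A, 9 for TET1, 10 for TET2, 37 for TET3 and 22 for TDG, against a median of 11 over 34788 RefSeq windows. The RefSeq windows of DNMT1 (21 CpG), UHRF1 (28) and DNMT3B (3) lie inside the genes as GENCODE 29 annotates them, so they are not the DNA before the genes at the positions given here. A match to TTTCCCGC, a letter sequence bound by E2F factors, on either strand was found in the UHRF1 window, inside the GENCODE gene, and for none of the other 7 members with a window, and 1.39% of all windows held it. These letters describe the DNA and were not set against any measurement of methylation, which the RNA data do not hold.

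Of the 9 members, all 9 reached a mean of 0.5 FPKM over the 6 libraries, the minimum for a test. With SAR, DNMT3A rose and TDG fell, by less than 2-fold each, and DNMT3B, the most highly expressed member, averaged 93.2 FPKM in control and 93.4 FPKM with SAR. The test was limma on log2(FPKM + 0.1) over 16371 genes, with Benjamini-Hochberg adjustment of two-sided p-values, and "higher" and "lower" refer to an adjusted p-value under 0.05. By this rule 1 member was higher and 1 lower, where 23.7% of all tested genes were higher and 9.55% lower (33.3% in either direction), and the members' 11.1% each way, 1 gene in each direction, was below the background of higher genes, near that of lower genes, and no result about the members as a group. With a log2 fold change above 1 or under -1 required as well, the thresholds of the study's methods, 0 members were upregulated or downregulated by limma, against 3.41% and 1.58% of all genes. The count of members past that fold was also 0 at an unadjusted p-value under 0.05 and with voom, a limma method for counts applied to the recovered reads. At an unadjusted p-value under 0.05 without a minimum fold, 1 member was higher and 2 were lower, against 5298 and 2253 of all 16371 tested genes. The lower members were TDG and DNMT3L, and DNMT3L was tested only through its control libraries. The middle of all tested genes lay at a log2 fold change of 0.12 as deposited and at 0.00 after median-ratio rescaling of the libraries, so each member is given on both scales. After rescaling, 13.8% of all genes were higher and 15.5% lower, and 1 member was still higher and 1 lower.

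**Figure D1:**
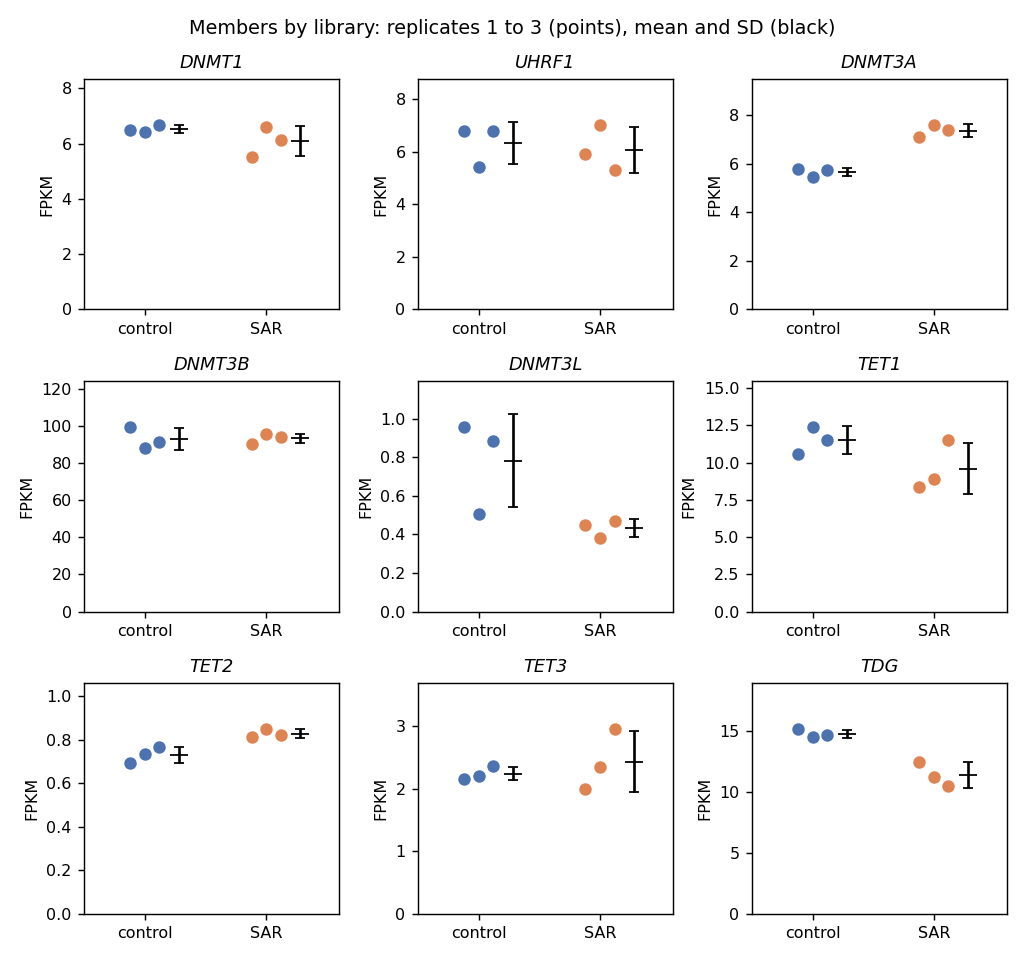
FPKM (y axis, linear from 0) of each of the 9 genes in the 3 control and 3 SAR libraries, with points for replicates 1 to 3 from left to right and black bars for the mean and SD. The SAR points of DNMT3A and TET2 lie above all control points, those of TDG and DNMT3L lie below them, and the groups overlap for the other 5 genes.

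Among the enzymes that place new methylation, DNMT3B (ENSG00000088305, chromosome 20 from 32762385 to 32809356, plus strand, GENCODE 29 on GRCh38) had 99.7, 88.3 and 91.7 FPKM in control replicates 1, 2 and 3 and 90.4, 95.6 and 94.1 FPKM in SAR replicates 1, 2 and 3. All 3 SAR values lay within the control range. The means were 93.2 ± 5.89 and 93.4 ± 2.65 FPKM (SD, n = 3), above 97.6% of the tested genes, on 6984 to 10116 reads in each library. Its log2 fold change was 0.00, with a 95% confidence interval of -0.14 to 0.15 (limma, adjusted p = 0.97), and -0.12 after rescaling (interval -0.25 to 0.01). As a factor, the interval as deposited ran from 0.907 to 1.11.

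DNMT3A (ENSG00000119772, chromosome 2 from 25227855 to 25342590, minus strand) is the other catalytic enzyme of this kind. It had 5.77, 5.46 and 5.74 FPKM in the control libraries and 7.09, 7.60 and 7.38 FPKM with SAR. Every SAR library was above every control library, as for 35.5% of all tested genes. Groups that did not overlap in either direction were found for 4 members and for 50.7% of all tested genes. The mean rose from 5.65 ± 0.173 to 7.36 ± 0.254 FPKM, with a log2 difference of 0.37 (adjusted p = 0.00518 in limma, SE 0.0598), or 1.30-fold. After rescaling the log2 fold change was 0.25 (adjusted p = 0.0197), about 1.19-fold, and it was 0.25 (adjusted p = 0.051) when the replicate number entered the rescaled fit as a block.

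The ratio of DNMT3B to DNMT3A is taken within a library and does not depend on scaling between libraries. It was 17.3, 16.2 and 16.0 in the control libraries and 12.7, 12.6 and 12.8 with SAR. The groups did not overlap. DNMT3A was already called without overlap while DNMT3B had nearly the same mean in both groups. The separation of the ratio thus follows from the DNMT3A values and adds no support. DNMT3B still made up 92.6% to 92.7% of the summed FPKM of the 2 genes with SAR, against 94.1% to 94.5% in control. These ratios are given as a description without a test.

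DNMT3L (ENSG00000142182, chromosome 21 from 44246339 to 44262216, minus strand), the cofactor without catalytic activity, was close to the minimum level. Its mean was under 0.5 FPKM with SAR, so it was tested only through its control libraries, and its difference and the calls below are given as a description. Its values were 0.958, 0.507 and 0.883 FPKM in the control libraries and 0.451, 0.381 and 0.468 FPKM with SAR. The SAR libraries were all below the control libraries, as for 15.2% of all tested genes, though control replicate 2 lay nearer to the SAR libraries than to the other controls. On 23 to 39 reads per control library and 12 to 16 with SAR, the log2 fold change was -0.69 (SE 0.278, 95% confidence interval -1.35 to -0.03), and it did not pass after adjustment (limma, adjusted p = 0.0966), nor after rescaling (-0.79, adjusted p = 0.0679). Without control replicate 2 the log2 fold change of DNMT3L was -0.94 (adjusted p = 0.0479). In GENCODE 29, 13% of its exon bases lie opposite an antisense gene, and 22.7% of the 75-base stretches of its longest coding transcript also occur in FP565260.4, a gene on chromosome 21 from 5011799 to 5017145 that was listed at 0 in 5 of the 6 libraries. Reads of the shared stretches, and reads of the antisense gene if strand was not used in counting, cannot be told apart from those of DNMT3L.

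**Figure D2:**
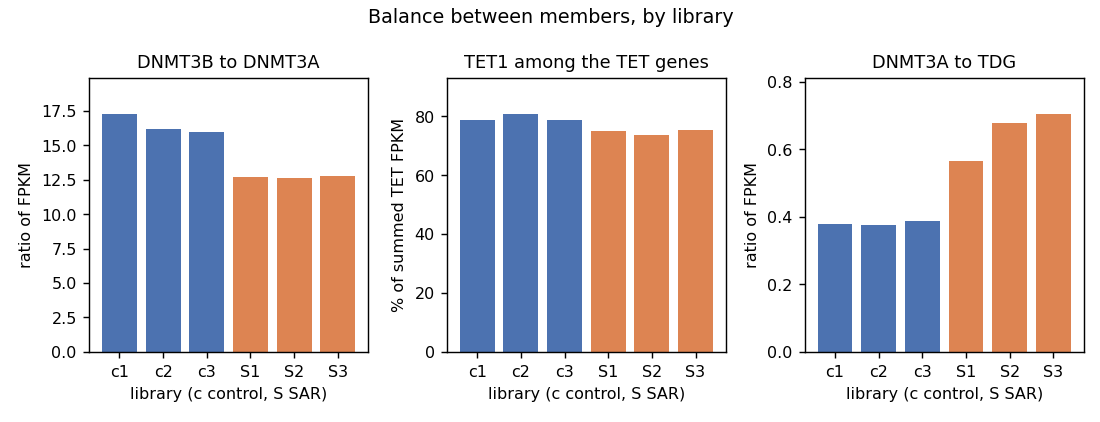
Bars give, for each of the 6 libraries, the ratio of DNMT3B to DNMT3A FPKM (left), the percentage of summed TET FPKM that came from TET1 (middle) and the ratio of DNMT3A to TDG FPKM (right), each on an axis from 0. In all 3 panels the control (blue) and SAR (orange) bars do not overlap, for example 16.0 to 17.3 against 12.6 to 12.8 for DNMT3B to DNMT3A. DNMT3A and TDG were already called in opposite directions, so the separation in the right panel follows from their values. The separation in the left panel follows from the values of DNMT3A.

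The maintenance pair did not pass the test. DNMT1 (ENSG00000130816, chromosome 19 from 10133345 to 10231286, minus strand) had 6.48, 6.40 and 6.68 FPKM in the control libraries and 5.52, 6.61 and 6.12 FPKM with SAR. SAR replicate 2 lay inside the control range and the other 2 SAR libraries below it. The log2 fold change was -0.10 (95% confidence interval -0.29 to 0.08, limma, adjusted p = 0.342), and -0.22 after rescaling (interval -0.41 to -0.04, adjusted p = 0.0719).

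UHRF1 (ENSG00000276043, chromosome 19 from 4903080 to 4962154, plus strand), which reads hemimethylated CpG and recruits DNMT1, had 6.79, 5.41 and 6.78 FPKM in control and 5.91, 7.02 and 5.28 FPKM with SAR. The lowest and the highest of the 6 values were both SAR libraries. Its log2 fold change was -0.06 (interval -0.37 to 0.25, adjusted p = 0.744), and -0.18 after rescaling (interval -0.48 to 0.12). Of its 75-base stretches, 23.0% also occur in AC112777.1, a processed pseudogene on chromosome 12 that was listed at 2.04 ± 0.524 FPKM in control and 2.05 ± 0.563 with SAR. The ratio of UHRF1 to DNMT1 was 0.846 to 1.05 in the control libraries and 0.864 to 1.07 with SAR, so the groups overlapped.

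Among the genes that remove methylation, TDG (ENSG00000139372, chromosome 12 from 103965804 to 103988874, plus strand) had 15.2, 14.5 and 14.7 FPKM in the control libraries. With SAR it had 12.5, 11.2 and 10.5 FPKM, below every control library. The mean fell from 14.8 ± 0.334 to 11.4 ± 1.05 FPKM (SD, n = 3), with a log2 difference of -0.38 (adjusted p = 0.0107 in limma, SE 0.0751), a factor of 0.769. After rescaling the log2 fold change was -0.50 (adjusted p = 0.00467). Its reads numbered 1360 to 1732 in a control library and 927 to 1021 in a SAR library. Its processed pseudogene TDGP1, which holds 6.64% of the 75-base stretches of TDG, lay at 0.300 to 0.517 FPKM in control and 0.146 to 0.288 with SAR and was not tested, because its mean was under 0.5 FPKM. The ratio of DNMT3A to TDG was 0.376 to 0.389 in the control libraries and 0.566 to 0.705 with SAR. This ratio was not among the planned ones. Both genes were already called, in opposite directions and without overlap, so the separation of their ratio follows from their values and adds no support.

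TET1 (ENSG00000138336, chromosome 10 from 68560656 to 68694482, plus strand), the main TET gene of pluripotent cells, had 10.6, 12.4 and 11.5 FPKM in the control libraries and 8.35, 8.88 and 11.5 FPKM with SAR. SAR replicates 1 and 2 were below all controls, and SAR replicate 3 lay within the control range. The log2 fold change was -0.27 (95% confidence interval -0.57 to 0.04, limma, adjusted p = 0.146), and -0.39 after rescaling (interval -0.70 to -0.08, adjusted p = 0.0642). SAR replicate 3 decides the call, since without it the log2 fold change of TET1 was -0.41 (adjusted p = 0.0172), and without SAR replicate 1 it was -0.18 (adjusted p = 0.345).

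TET3 (ENSG00000187605, chromosome 2 from 73986404 to 74108176, plus strand) had 2.15, 2.21 and 2.36 FPKM in control and 1.99, 2.35 and 2.96 FPKM with SAR. The SAR libraries spread to both sides of the controls, and SAR replicate 3 was the highest of the SAR libraries for TET3 as for TET1. Its log2 fold change was 0.10 (interval -0.24 to 0.44, adjusted p = 0.622) and -0.02 after rescaling. TET2 (ENSG00000168769, chromosome 4 from 105145875 to 105279816, plus strand), the lowest member in control, had 0.693, 0.733 and 0.765 FPKM in control and 0.811, 0.849 and 0.822 FPKM with SAR. Its SAR libraries were all above the controls, by a margin that did not pass the test (log2 fold change 0.16, interval -0.20 to 0.52, limma, adjusted p = 0.447), on 223 to 295 reads in each library, and its rescaled log2 fold change was 0.05. TET2-AS1, annotated opposite to TET2, was listed at 0 in 4 libraries and at under 0.1 FPKM in the other 2.

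Within a library, TET1 made up 78.8%, 80.8% and 78.6% of the summed FPKM of the 3 TET genes in control and 74.9%, 73.5% and 75.3% with SAR. The share was lower in all 3 SAR libraries. In SAR replicate 3, TET1 itself was at 11.5 FPKM, within the control range, and TET3 at 2.96 FPKM was the highest of the 6 libraries. The lower share there is thus no sign of lower TET1. The summed TET level itself overlapped, at 13.4 to 15.4 FPKM in control and 11.2 to 15.3 with SAR.

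**Figure D3:**
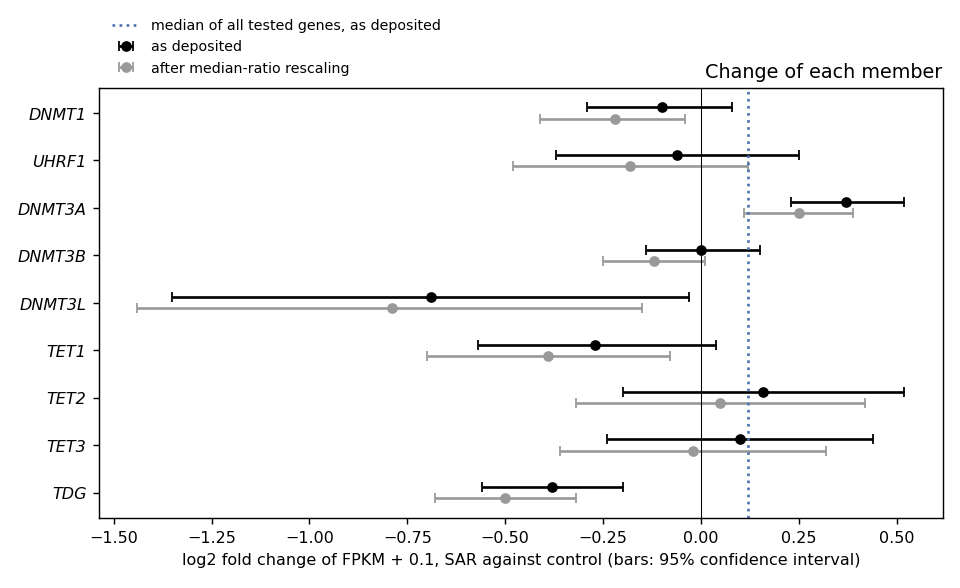
Points give the log2 fold change of FPKM + 0.1 (x axis) of each of the 9 genes, SAR against control, with 95% confidence intervals from limma, in black as deposited and in grey after median-ratio rescaling, and the dotted line marks the median of all tested genes at 0.12. The intervals of DNMT3A lie above 0 and those of TDG below 0 on both scales, and DNMT3L has the widest interval, from -1.35 to -0.03 as deposited.

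The order of levels in control was DNMT3B (93.2 FPKM), TDG (14.8), TET1 (11.5), DNMT1 (6.52), UHRF1 (6.33), DNMT3A (5.65), TET3 (2.24), DNMT3L (0.783) and TET2 (0.730). DNMT1, UHRF1 and DNMT3A were neighbors whose ranges overlapped in turn, as did those of DNMT3L and TET2. With SAR, DNMT3A at 7.36 FPKM stood above DNMT1 at 6.08 and UHRF1 at 6.07 without overlap with either, and TDG and TET1 overlapped. TET2 and DNMT3L changed places at the bottom. These levels depend on the gene length that the authors used, which for DNMT1 was 15379 bases where the exons of GENCODE 29 cover 9796. With GENCODE lengths DNMT1 would stand at 10.2 FPKM in control and 9.55 with SAR, above DNMT3A at 6.48 and 8.44. The order of DNMT3A and DNMT1 with SAR thus depends on the length used, while a fold change between libraries is the same for any length.

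The pattern nearest to that of DNMT3A over the 6 libraries, among 14785 other tested genes with a symbol and by Euclidean distance between log2 deviations from the gene's own mean, was that of TMEM216 (distance 0.0475), followed by PIP5K1C (0.0602) and PCBP1-AS1 (0.0655). For TDG the nearest were SGTB (0.0750), FAM114A2 (0.0959) and CASTOR2 (0.0976). The 3 genes nearest to DNMT3A had log2 fold changes of 0.39, 0.37 and 0.39, of which that of PCBP1-AS1, a gene of low level, did not pass (adjusted p = 0.15), and the 3 nearest to TDG of -0.36, -0.37 and -0.34. Fold changes near those of the member follow from picking genes by this distance and are given as a description.

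The genes that act with the members were examined as lists, with the same fit. Of 18 partners of DNMT1, UHRF1 and the DNMT3 enzymes, 17 were tested, 3 were higher (17.6%) and 1 was lower (5.88%). Both shares were below the 23.7% and 9.55% of all tested genes. The middle of the list lay at 0.10, near the 0.12 of all genes. Without any 1 control library or without SAR replicate 2, 1 partner was higher, and without SAR replicate 3, 2 were lower. CDCA7, which with the remodeler HELLS supports methylation of heterochromatin, fell from 22.8 ± 0.385 to 18.1 ± 0.617 FPKM (SD, n = 3), with a log2 difference of -0.33 (limma, adjusted p = 0.00449), while HELLS itself was at 14.3 FPKM in control and 15.4 with SAR (0.10, adjusted p = 0.363). The paired histone H3 lysine methyltransferases EHMT2 and EHMT1 rose, by 0.45 and 0.28 on the log2 scale (adjusted p = 0.00742 and 0.0223), and PCLAF, which binds PCNA at replication forks, rose by 0.32 (adjusted p = 0.0386). After rescaling, EHMT2 kept an adjusted p-value under 0.05 (0.0267), and EHMT1 (0.136) and PCLAF (0.15) did not. DPPA3, a protein that displaces UHRF1 from chromatin, had 13, 24 and 14 reads in the control libraries and 3, 1 and 2 with SAR, or 0.702 ± 0.179 and 0.105 ± 0.0552 FPKM. Its mean was under 0.5 FPKM and it was not tested, and it is named after its values were seen.

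Proteins that bind methylated CpG numbered 10, all tested, of which 2 were higher and 0 lower by limma, with 1 lower at an unadjusted p-value under 0.05 and 0 lower by voom. Without control replicate 2 or SAR replicate 2, 1 was higher. ZBTB4, a zinc finger protein that binds methylated CpG, rose from 3.50 ± 0.167 to 4.71 ± 0.326 FPKM (log2 fold change 0.42, limma, adjusted p = 0.00898). MBD3, a subunit of the NuRD complex, rose from 2.34 ± 0.0926 to 3.56 ± 0.579 FPKM (0.57, adjusted p = 0.0149).

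The list of TET regulators and base excision repair genes held 24 genes, of which 22 were tested, 9 were higher (40.9%) and 4 lower (18.2%), against 23.7% and 9.55% of all genes. Without control replicate 2 or SAR replicate 2, 5 of them were higher. CXXC4, counted among the 9 higher, had a control mean under 0.5 FPKM and was tested only through its SAR libraries. Its direction was thus partly fixed by the filter. This gene, known to bind TET2 and lower its protein, had 0.274, 0.169 and 0.155 FPKM in the control libraries and 1.55, 1.28 and 1.61 FPKM with SAR. The groups were far apart, on 17 to 35 reads in control and 126 to 172 with SAR, and the log2 fold change was 2.42 (adjusted p = 0.00123 in limma, SE 0.245), the only one of the list beyond 1. Its paralog CXXC5 rose from 8.35 ± 0.670 to 14.2 ± 0.708 FPKM (0.76, adjusted p = 0.00122). IDH1, a cytosolic enzyme that makes 2-oxoglutarate, a cosubstrate of TET enzymes, fell from 206 ± 14.2 to 140.0 ± 6.34 FPKM (-0.55, adjusted p = 0.00235), and IDH2, its mitochondrial counterpart, was at 15.7 and 18.2 FPKM (0.21, adjusted p = 0.0937). GADD45A, a stress response gene also linked to demethylation, fell from 43.1 ± 3.89 to 28.3 ± 1.34 FPKM (-0.60, adjusted p = 0.00244).

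The following genes of the list were named after their values were seen. XRCC1, the scaffold of base excision repair, rose by 0.33 on the log2 scale (limma, adjusted p = 0.00685), and the glycosylases NEIL1 and SMUG1 rose by 0.64 and 0.37 (adjusted p = 0.00478 and 0.0103). The glycosylases NTHL1 (0.35, adjusted p = 0.0161) and UNG (0.31, adjusted p = 0.025) were higher as well. GADD45B, a paralog of GADD45A, fell by 0.68 (adjusted p = 0.00542), and DCAF1, a substrate receptor of a ubiquitin ligase that acts on TET proteins, by 0.30 (adjusted p = 0.0136). The other tested glycosylases of the list, OGG1, NEIL2 and NEIL3, did not pass. After rescaling, 5 genes of this list were higher and 4 lower, and XRCC1 (adjusted p = 0.0488), NEIL1 (0.0124) and SMUG1 (0.0411) were still higher, while NTHL1 (0.0562) and UNG (0.114) no longer passed.

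**Figure D4:**
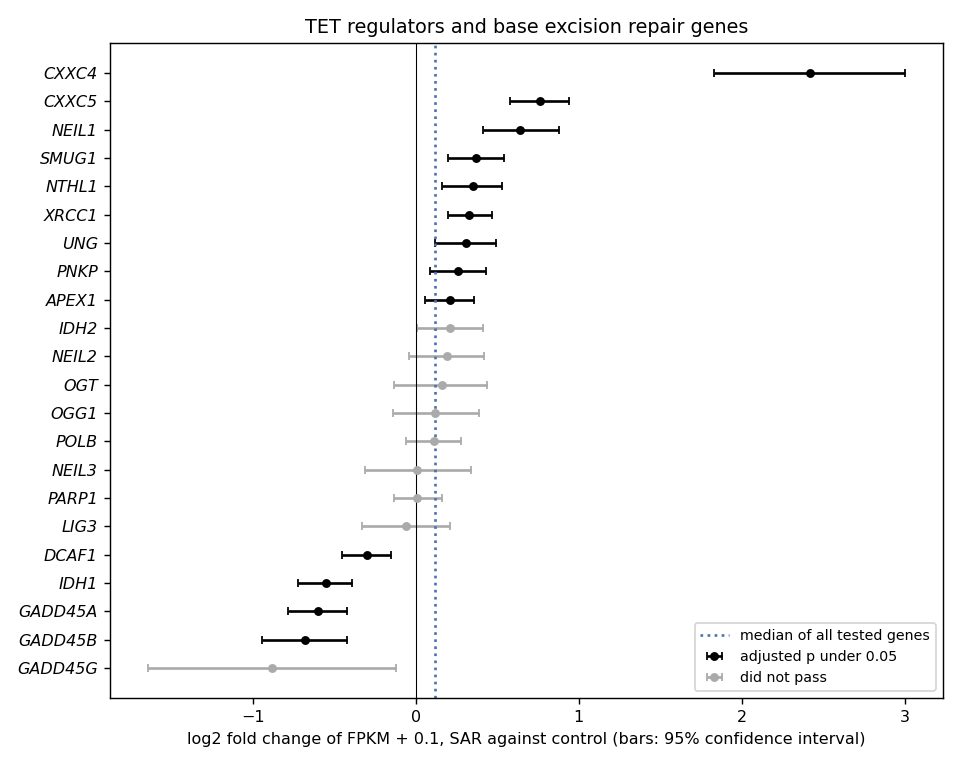
Points give the log2 fold change of FPKM + 0.1 (x axis) of the 22 tested TET regulators and base excision repair genes, SAR against control, with 95% confidence intervals from limma, black where the adjusted p-value was under 0.05 and grey where it was not, and the dotted line marks the median of all tested genes at 0.12. CXXC4, tested only through its SAR libraries, stands apart at 2.42, and the 4 black points below 0 are DCAF1, IDH1, GADD45A and GADD45B.

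The methionine and folate cycle supplies the methyl group through S-adenosylmethionine. Of its 22 listed genes, 18 were tested, 1 was higher and 1 lower, with a median of -0.01 on the log2 scale. That is 5.56% each way, against 23.7% higher and 9.55% lower among all tested genes. With a library left out, 0 to 2 were higher, 0 without control replicate 2 or 3 or SAR replicate 1 or 2 and 2 without control replicate 1. MTHFD2, a mitochondrial folate enzyme, fell from 14.7 ± 1.04 to 9.75 ± 0.283 FPKM (-0.59, limma, adjusted p = 0.00178). MAT2A, which makes S-adenosylmethionine in these cells, and AHCY, which clears its product, had log2 fold changes of -0.05 (adjusted p = 0.708) and 0.15 (adjusted p = 0.0872).

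DNMT1 and UHRF1 are known to follow the cell cycle, and replication and mitosis genes were set beside them. Of 35 DNA replication genes, 1 was higher (GINS3, 0.70) and 1 lower (RRM1, -0.21), with a median of 0.07. That is 2.86% each way, against 23.7% higher and 9.55% lower among all tested genes. Without control replicate 2 or 3 or SAR replicate 2, 0 replication genes passed by limma in either direction, without SAR replicate 1, 0 were lower, and without SAR replicate 3, 2 were higher. Of 23 tested mitosis genes, 9 were lower (39.1%) and 0 higher by limma, against 9.55% and 23.7% of all tested genes. There were 0 higher also at an unadjusted p-value under 0.05 and by voom, and the median was -0.18. CDK1 fell from 52.7 ± 0.455 to 40.4 ± 1.40 FPKM (-0.38, adjusted p = 0.00239), and CCNA2 from 50.4 ± 2.15 to 37.4 ± 1.92 FPKM (-0.43, adjusted p = 0.00347), while AURKA (-0.25) and KIF20A (-0.31) fell as well. Without control replicate 2 or 3 or SAR replicate 2, 2 mitosis genes were lower, without control replicate 1 or SAR replicate 1 there were 5, and without SAR replicate 3 there were 12. Lower calls over all genes moved the same way. They numbered 1563 with all libraries, 1005, 833 and 1031 without control replicate 2, control replicate 3 and SAR replicate 2, and 1824 without SAR replicate 3.

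Genes known to be held silent or marked by methylation were also counted. Of 16 germline genes with methylated promoters, 14 were below the minimum level in these libraries, and 0 of the 2 tested ones passed by limma. BRDT stood at 0.931 FPKM in control and 0.581 with SAR (-0.61, adjusted p = 0.0561) and STK31 at 0.550 and 0.849 (0.54, adjusted p = 0.0689), and at an unadjusted p-value under 0.05, as by voom, 1 was higher and 1 lower. Without SAR replicate 3, 1 was lower by limma. Of 23 imprinted genes, 16 were tested, 3 were higher (18.8%) and 2 lower (12.5%). All tested genes stood at 23.7% and 9.55%, so these counts are no result about imprinted genes as a group. PEG10, a paternally expressed gene derived from a retrotransposon, fell from 153 ± 17.9 to 64.6 ± 6.22 FPKM (-1.24, limma, adjusted p = 0.00068), and GRB10 fell by 0.48 (log2, adjusted p = 0.00401). CDKN1C, a maternally expressed inhibitor of the cell cycle, rose from 16.0 ± 0.990 to 26.0 ± 1.61 FPKM (0.70, adjusted p = 0.00122), and DLK1 from 0.784 ± 0.0652 to 1.63 ± 0.258 FPKM (0.96, adjusted p = 0.00519).

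Among 15 tested pluripotency markers, 4 were higher (26.7%) and 2 lower (13.3%), near the 23.7% and 9.55% of all tested genes. Without control replicate 2, 2 were higher, and without control replicate 3 or SAR replicate 2, 1 was. NANOG fell from 14.7 ± 1.71 to 5.89 ± 0.604 FPKM (-1.30, limma, adjusted p = 0.000672) and GDF3 by 1.29 (log2, adjusted p = 0.00554), while SALL4 (0.48, adjusted p = 0.00263) and SOX2 (0.88, adjusted p = 0.0153) rose. DNMT3B and TET1, which are known to mark pluripotent cells, did not pass the test in the same libraries.

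**Figure D5:**
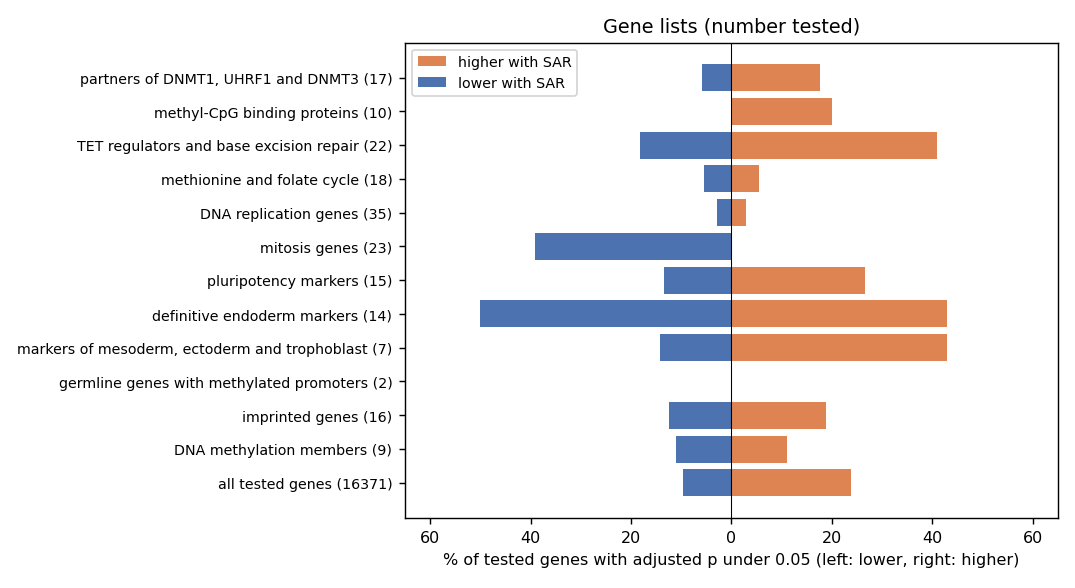
Bars give the percentage of tested genes of each list (number tested in parentheses) with an adjusted p-value under 0.05, lower with SAR to the left in blue and higher to the right in orange, with the 9 methylation genes and all 16371 tested genes at the bottom. The methylation genes stand at 11.1% on each side, against 23.7% higher and 9.55% lower among all genes.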

How the data were processed

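RNA-seq was analysed for 3 control and 3 SAR samples, grouped by their labels, each column of the deposited table matching 1 sample. The authors deposited FPKM per gene and library, without pooling. The submitters' processing notes list HISAT2, featureCounts, Subread and DESeq2, without versions, and GRCh38.p13. The annotation release and strand setting are not given in the sources used here.

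FPKM are not counts, so limma 3.58.1 in R 4.3.3 (intensity trend, no replicate block) was run on log2(FPKM + 0.1) over 16371 genes, those whose mean reached 0.5 FPKM. This scale understates the change of low genes. Other steps used Python 3.11.15. Reads were recovered as whole multiples (tolerance 0.02) of the FPKM of 1 read, with totals from GENCODE 29 exon lengths, for 40394 of 40396 genes, and counting error is all they cover. Positions come from GENCODE 29 and 30235 IDs had a symbol. Promoter windows were found for 8 of the 9 genes.

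Named genes were the members, up to 4 genes of each list with the smallest adjusted p-values, the 3 nearest patterns of each member past the test, and related pseudogene and antisense rows. Some genes of the lists are not reported here by name. HELLS, IDH2, MAT2A, AHCY, POU5F1, NES, MESP1, PAX6, CDX2, BRDT and STK31 fall outside this rule and were named after their values were seen. The members and lists were chosen with earlier results of these data known. In simulated data for this comparison (16031 genes tested), 28.8%, 70.1% and 82.1% of genes with log2 changes of 0.5, 1 and 2 were called, and 3 of 15839 unchanged genes were. The simulation changed 66, 67 and 67 genes at these sizes, a far smaller share than the 33.3% of genes called in the data. The adjustment of p-values depends on that share, so these rates do not carry over to the data. Chi-square per degree of freedom between libraries of one group was 4.52 to 14.3, where sampling alone gives about 1, so none was taken as a repeat of another. As alternatives, the pseudocount was 1 or 0.01, the filter was dropped or set at 1 FPKM, libraries were scaled by median ratios or quantiles, the trend was dropped, the replicate number was a block, genes were limited to protein-coding ones, and each library was left out. voom, and rescaling with the block, were added after the data were seen.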

Additional observations from a re-analysis of the deposited data

How the results depend on the processing

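DNMT3A was higher and TDG lower under all 17 alternatives, except that DNMT3A did not pass with median-ratio rescaling and the replicate block together (log2 fold change 0.25, adjusted p = 0.051 from limma), which left 0 members higher. Over the alternatives the log2 fold change of DNMT3A lay between 0.25 and 0.40 and that of TDG between -0.50 and -0.32. The count of members lower was 2 in place of 1 with quantile normalization and with protein-coding genes only, where DNMT3L passed (-0.93 and -0.69), and between 1 and 2 with each library left out, where DNMT3L passed without control replicate 2 and TET1 without SAR replicate 3. No member was upregulated or downregulated past the fold threshold under any alternative run. DNMT1, UHRF1, DNMT3B, TET2 and TET3 passed under none, with adjusted p-values of 0.0719 or more. The replicate numbers gave no sign of pairing, with correlations of deviations between same-numbered libraries of 0.0729, 0.00286 and 0.0247. With the replicate block alone there was 1 member higher and 1 lower. Over all genes, the upregulated and downregulated counts were 559 and 259, but 397 and 363 after median-ratio rescaling, and higher and lower counts went from 3885 and 1563 to 2249 and 2533. With a pseudocount of 1, 169 genes were upregulated and 141 downregulated.

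Counts for the lists moved more. Mitosis genes lower with SAR ranged from 2 to 16, TET regulators and repair genes higher from 3 to 10 and lower from 3 to 5, partners higher from 1 to 4, and replication genes lower from 0 to 5 and higher from 0 to 4. Methionine and folate cycle genes lower ranged from 1 to 5 and higher from 0 to 2, pluripotency markers higher from 1 to 5, and imprinted genes higher from 3 to 5. Calls over all genes moved as well, to between 2129 and 3751 higher and between 833 and 1824 lower with a library left out. The cause of these shifts was not tested. Depth limits DNMT3L most, at 12 to 39 reads in a library, and since it was tested only through its control libraries its calls here support nothing.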
